A study of Homo sapiens with 12 samples.

Results

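Bafilomycin A1 (BafA1), which stops the acidification of lysosomes, was compared directly with MG132, which blocks the proteasome, in hTERT-RPE1 cells, a telomerase-immortalised human line from the retinal pigment epithelium. All libraries of both treatments were taken, 6 of the 12 libraries of the series. The 3 BafA1 libraries came from cells kept in 0.1 µM BafA1 for 6 h and the 3 MG132 libraries from cells kept in 1 µM MG132 for 24 h. The 3 control libraries, from cells labelled as treated with nothing, are given as a level beside both treatments. The 3 reversine libraries came from cells kept in 0.5 µM reversine for 24 h, with 48 h of recovery. They entered the row filter, the joint estimate of the spread and some alternatives, and are not compared here. Dose and duration differed between the treatments, so compound, dose and time cannot be told apart, and no vehicle is named for any group. Every group is the same telomerase-immortalised line, and the labels do not say whether the libraries of a group are separate cultures. The p-values therefore rest on the spread between libraries alone, which may be technical. Poly(A) RNA was sequenced, and each gene is given in FPKM, a fragment count divided by transcript length in kilobases and by library size.

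Cells break down proteins by a pair of main routes. The proteasome digests proteins tagged with ubiquitin, and its inhibition lets misfolded proteins pile up, which is known to free the heat shock factor HSF1. Inhibition of the proteasome is also known to activate NFE2L1, the factor that drives proteasome genes. The lysosome digests what autophagy and endocytosis deliver, and it needs the proton pump V-ATPase, the target of BafA1, for its acid pH; that acid is also needed to release cholesterol from low-density lipoprotein and iron from transferrin. Low sterol in the endoplasmic reticulum is known to activate the SREBP factors, which turn on the genes of cholesterol and fatty acid synthesis, and the enzymes that mark HIF, the hypoxia-inducible factor, for destruction need iron.

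The table held 53361 rows, of which 30712 reached 1 FPKM in at least 3 of the 12 libraries and were tested. Differences are on the log2(FPKM + 1) scale, which understates the change of low genes, as BafA1 minus MG132 with the standard error of a limma fit, n = 3 libraries each, and p-values are adjusted over all 30712 rows. The FPKM of a library summed to between 1235679 and 2057717 for BafA1 and between 962891 and 1417768 for MG132. The table gives no read counts, so the depth in reads is unknown; the lowest values above 0 put the 6 libraries at 0.602 to 0.912 of the depth of the deepest library of the series. MG132 libraries 2 and 3 stood apart from MG132 library 1. The trend of values with GC content, in log2 units per 10 percentage points, was 0.208, 0.216 and -0.103 in BafA1 libraries 1 to 3, and 0.095, -0.521 and -0.552 in MG132 libraries 1 to 3. The BafA1 libraries listed 496, 0 and 1286 tested rows at 0 and the MG132 libraries 252, 8527 and 8066. Mitochondrial transcripts took 2.7% to 4.2% of the FPKM of BafA1 libraries, and 4.3%, 8.2% and 20.4% of that of MG132 libraries. Over 9799 genes, Pearson's r on the log scale was 0.961 to 0.991 between BafA1 libraries, 0.949 between MG132 libraries 2 and 3, and 0.863 and 0.868 between MG132 library 1 and the others; all libraries share their genes' base levels, so these values are a description. In BafA1 library 2 the 10 highest genes took 42.9% of the FPKM. Results are therefore also given without MG132 libraries 2 and 3, an alternative chosen after the data were seen, where that ends a call.

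BafA1 and MG132 libraries differed in 3334 rows, 10.9% of those tested, at an adjusted p under 0.05. Of these, 1955 (6.37% of all tested rows) were higher and 1379 (4.49%) lower in BafA1, and 2073 (6.75%) differed at least 2-fold. Among the 14194 protein-coding rows, 12.4% were called higher and 7.64% lower in BafA1. The median difference was 0.046 over all tested rows and -0.041 over the protein-coding ones. It was -0.179 over the 22185 tested rows above 0 in all 12 libraries. Counts and medians of gene groups are read against these values. They cover members that passed the filter, which left out 1 of 25 listed cholesterol genes, 1 of 29 heat shock genes, 2 of 34 autophagy genes, 2 of 31 ATF4 and CHOP targets and 0 of 33 proteasome subunits. The ranges of the 3 BafA1 and the 3 MG132 libraries did not overlap in 29.4% of all rows. Set against the control libraries in the same fit, 0.264% of rows were called for BafA1 and 14.8% for MG132, and both contrasts share those control libraries. The fit pools the spread of each row over all 4 groups, the uneven MG132 libraries among them. The small share for BafA1 therefore does not show that BafA1 left the other rows unchanged. For 88.7% of the 1955 rows called higher in BafA1 and for 95.3% of the 1379 called lower, the control mean lay nearer to the BafA1 mean than to the MG132 mean, against 74.7% of the rows not called. Without BafA1 library 3, MG132 library 2 and MG132 library 3, whose values fell with GC content, these shares were 86.9%, 91.7% and 49.9%. A fit that also left out reversine library 1, whose values fell likewise, called 5.71% of rows.

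**Figure D1:**
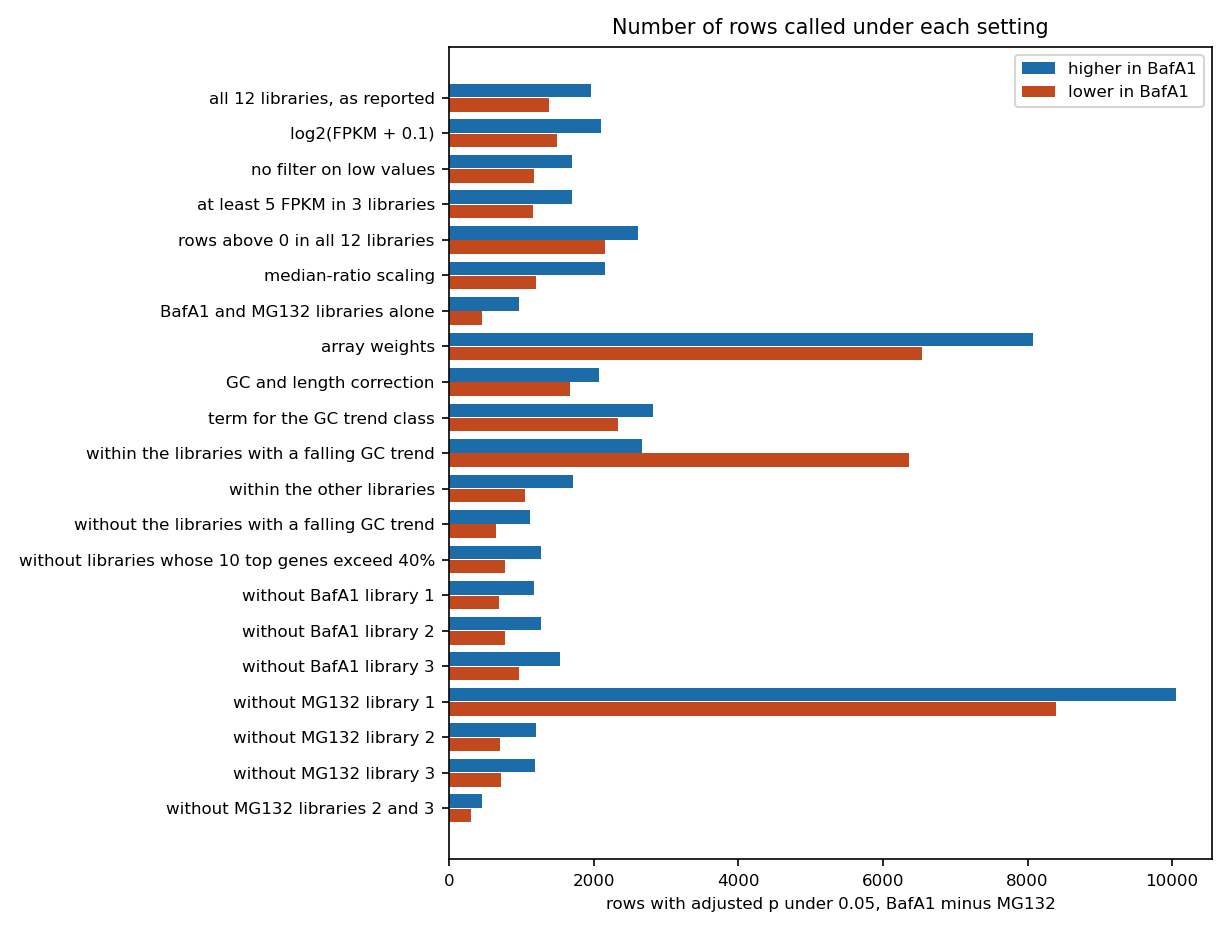
Number of rows called higher (upper bar) and lower (lower bar) in BafA1 than in MG132 at an adjusted p under 0.05, for the fit of all 12 libraries and for each alternative. Leaving out MG132 library 1 gave 10050 and 8395 calls, against 1955 and 1379 with all libraries, and leaving out MG132 libraries 2 and 3 gave 453 and 294.

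The count of calls turned on single libraries. It was 18445 without MG132 library 1, and 1899 and 1902 without MG132 library 2 or 3. Leaving out BafA1 library 1 gave 1855 calls, BafA1 library 2 gave 2028, and BafA1 library 3 gave 2494. Without MG132 libraries 2 and 3 together it was 747, with the lone MG132 library assumed to vary like the other groups. Each of the 3334 rows kept its direction whichever of these libraries was left out. The rows were selected as called on these same libraries, so this is a description and not a test of the calls. Counts of list members moved with the libraries too. Of the 62 counts above 0, over 44 lists and both directions, 34 moved by more than 1.5 times with some library left out and 52 without MG132 libraries 2 and 3.

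The genes with the widest called differences are described first, among symbols that stand on 1 row alone. HSPA6, an HSP70 chaperone that most cells make only under stress, had 0.42, 0.4 and 0.29 FPKM in the BafA1 libraries, against 68.8, 42.03 and 40.6 FPKM in the MG132 libraries and 0.473 ± 0.208 in control libraries (SD, n = 3). All BafA1 and control libraries were under 1 FPKM and no MG132 library overlapped them; the difference was -5.19 ± 0.22 (limma, adjusted p = 3.82e-06). HMOX1, heme oxygenase, had 16.02, 13.1 and 15.7 FPKM in BafA1 libraries and 490.0, 365 and 368 FPKM in MG132 libraries, with 33.98 ± 4.69 in control libraries. It was lower in BafA1 by a difference of -4.67 ± 0.19 (adjusted p = 3.82e-06), and the control mean lay between the treatments. SERPINB2, an inhibitor of plasminogen activators, was below the control libraries in BafA1 and above them in MG132, at 4.15, 5.45 and 4.76 FPKM in BafA1 libraries and 83.8, 136 and 137 FPKM in MG132 libraries beside 30.3 ± 0.765 in control libraries. Both its contrasts with control were called, at -2.44 for BafA1 (adjusted p = 0.00148) and 1.90 for MG132 (adjusted p = 3.52e-04).

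Other genes lower in BafA1 were the small heat shock protein HSPB8 (-4.28 ± 0.15), the extracellular chaperone clusterin, CLU (-4.08 ± 0.16), the neuronal tubulin TUBB4A (-4.52 ± 0.28), the cytokine subunit IL12A (-3.49 ± 0.38), MLLT11 (-3.65 ± 0.51) and the non-coding RNA LINC00520 (-3.49 ± 0.49). All 6 were called, with adjusted p-values between 3.59e-06 and 0.00184. The MG132 libraries themselves were uneven for MLLT11, at 31.8, 103 and 107 FPKM, and for LINC00520, at 21.9, 66.9 and 71.5 FPKM, with MG132 library 1 lowest in both. Those were the calls of the 6 that ended without MG132 libraries 2 and 3, at adjusted p-values of 0.0637 and 0.0584.

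Among genes higher in BafA1, TGM2, a transglutaminase that cross-links matrix proteins, had 1389, 1342 and 987 FPKM in BafA1 libraries and 68.1, 32.4 and 32.3 FPKM in MG132 libraries, a difference of 4.85 ± 0.35 (adjusted p = 5.32e-05). PLAT, tissue plasminogen activator, had 412, 418 and 326 FPKM in BafA1 libraries and 23.8, 12.8 and 13.6 FPKM in MG132 libraries (4.49 ± 0.31, adjusted p = 4.20e-05). For both genes the control mean, 1160.3 ± 169.5 FPKM for TGM2 and 378 ± 46.7 FPKM for PLAT, lay close to the BafA1 libraries and far above the MG132 libraries. The same held for the Wnt antagonist SFRP1, at 743 ± 82.1 FPKM in BafA1, 63.4 ± 5.69 in MG132 and 761 ± 121 in control libraries. The caveolar coat protein CAV1 showed it too (642 ± 9.06, 60.2 ± 11.7 and 622 ± 7.80 FPKM in the same order; SD, n = 3 each). SFRP1 differed by 3.53 ± 0.14 (adjusted p = 3.82e-06) and CAV1 by 3.41 ± 0.15 (adjusted p = 4.38e-06). The Wnt receptor FZD1 (3.90 ± 0.19), the forkhead factor FOXS1 (3.82 ± 0.29) and the matrix glycoprotein THBS1 (4.28 ± 0.54) were also called higher in BafA1. THBS1 was uneven in both groups, at 1352, 1275 and 588 FPKM in BafA1 libraries and 103, 35 and 36.5 FPKM in MG132 libraries, and its call ended without MG132 libraries 2 and 3 (adjusted p = 0.059). The non-coding RP11-295K3.1 (3.64 ± 0.52) lost its call in the same way (adjusted p = 0.109). The pseudogene MT1P3 had 95.8, 169 and 275 FPKM in BafA1 libraries and 63.9, 0 and 0 FPKM in MG132 libraries, where MG132 libraries 2 and 3 listed it at 0. Its difference was 5.37 ± 1.39 (adjusted p = 0.0382), and the call ended without any 1 of BafA1 libraries 1, 2 or 3 or MG132 libraries 2 or 3, at adjusted p-values up to 0.148. Near-identical metallothionein copies make the row uncertain.

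**Figure D2:**
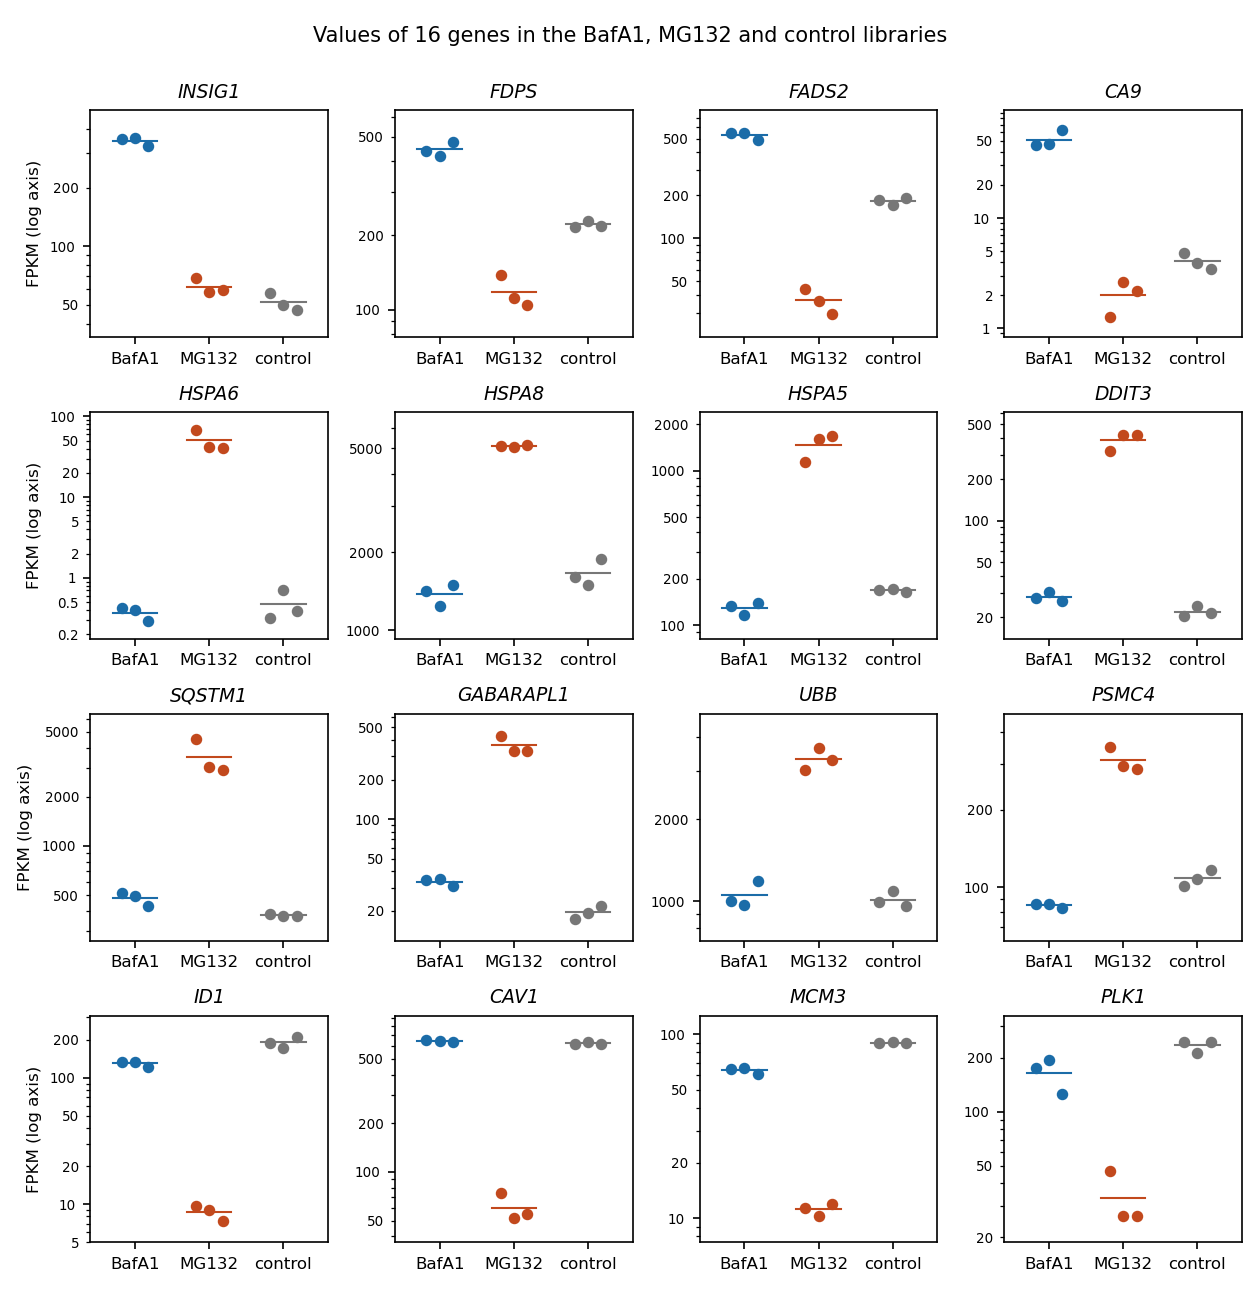
FPKM of 16 named genes in each BafA1 (left), MG132 (middle) and control library (right), on log axes; points are libraries and lines are means of 3. The top row shows lipid and hypoxia genes that were higher in BafA1, the middle rows stress, autophagy, ubiquitin and proteasome genes that were lower in BafA1, and the bottom row genes for which BafA1 and control libraries were both above MG132 libraries, such as CAV1 at 642 ± 9.06, 60.2 ± 11.7 and 622 ± 7.80 FPKM.

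The genes of the proteasome itself were lower in BafA1 than in MG132. Of 33 subunits tested, 25 were called lower and 0 higher, against 4.49% and 6.37% of all rows, and all 33 estimates lay below 0, with a median of -1.25. Beside control libraries the median was -0.29 for BafA1 and 0.99 for MG132. PSMC4, an ATPase of the regulatory particle, had 86.3, 86.2 and 83.4 FPKM in BafA1 libraries, against 351, 296 and 287 FPKM in MG132 libraries and 109 ± 7.74 in control libraries. The groups did not overlap, and the difference was -1.85 ± 0.16 (adjusted p = 1.24e-04), with MG132 3.60-fold above BafA1. PSMD6 (-1.90 ± 0.13, adjusted p = 4.26e-05), PSMD11 (-1.31 ± 0.12, adjusted p = 1.77e-04) and PSMD13 (-1.45 ± 0.15, adjusted p = 3.40e-04), subunits of the same particle, had differences of similar size. Of the core particle, PSMB4 (-1.38 ± 0.16) and PSMB2 (-1.23 ± 0.12) were lower in BafA1. PSMB5, which carries the catalytic site that MG132 inhibits, had 243, 227 and 215 FPKM in BafA1 libraries and 417, 298 and 283 FPKM in MG132 libraries and was not called, at -0.52 ± 0.23 (95% interval -1.04 to 0.01, adjusted p = 0.125). At an unadjusted p under 0.05, 0 subunits were higher in BafA1, and the same held for the heat shock, V-ATPase, autophagy machinery and reticulum lists and, for lower genes, for the cholesterol, fatty acid, HIF, replication and mitosis lists. The number of subunits called lower ranged from 18 to 26 when 1 of the 6 libraries was left out, and was 8 without MG132 libraries 2 and 3, where the calls of PSMB4 and PSMB2 ended (adjusted p = 0.0536 and 0.0593).

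Genes that build or regulate the proteasome were mixed, with 3 of 18 called lower, 1 called higher and a median of -0.05. Their median was 0.36 without MG132 libraries 2 and 3. USP14, a deubiquitinase bound to the proteasome, was lower in BafA1 at 69.9, 73.2 and 58.1 FPKM, against 158, 151 and 139 FPKM in MG132 libraries (-1.15 ± 0.12, adjusted p = 3.76e-04). PSME4, an activator cap, was also lower (-1.71 ± 0.28, adjusted p = 0.00389), though not without MG132 libraries 2 and 3 (adjusted p = 0.169). NFE2L1, the factor that drives proteasome genes, had 339, 323 and 226 FPKM in BafA1 and 380.1, 226 and 194 FPKM in MG132 libraries and was not called (0.19 ± 0.31, adjusted p = 0.641). Among 25 ubiquitin genes and conjugating enzymes, 6 were called lower and 3 higher in BafA1, with a median of -0.54. UBB, which encodes a chain of ubiquitin units, had 1004, 972 and 1192 FPKM in BafA1 libraries, against 3042, 3638 and 3308 FPKM in MG132 libraries and 1016 ± 69.5 in control libraries. Every MG132 library stood above every BafA1 library (-1.66 ± 0.14, adjusted p = 1.04e-04). The 3 conjugating enzymes called higher in BafA1 were UBE2S (1.36 ± 0.22) and UBE2C (1.40 ± 0.24), which act on mitotic substrates, and UBE2T (1.59 ± 0.24). The call of UBE2S ended without MG132 libraries 2 and 3 (adjusted p = 0.163). Left out 1 at a time, the libraries gave 3 to 14 ubiquitin members called lower.

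Heat shock genes had the lowest median of the 44 gene lists examined. Of 28 HSF1 targets tested, 21 were called lower in BafA1 and 0 higher, with a median of -1.60; beside control libraries the median was -0.11 for BafA1 and 1.44 for MG132. HSPA8, the constitutive HSP70, had 1412, 1247 and 1499 FPKM in BafA1 libraries and 5119, 5061 and 5135 FPKM in MG132 libraries, with 1658 ± 194 in control libraries. The 3 MG132 libraries lay close together, and the difference was -1.88 ± 0.10 (adjusted p = 9.57e-06). DNAJB1, an HSP40 co-chaperone, had 68.3, 62.2 and 86.5 FPKM in BafA1 libraries and 309, 478 and 451 FPKM in MG132 libraries (-2.48 ± 0.19, adjusted p = 5.95e-05). BAG3, which couples HSP70 to autophagy, had 154, 147 and 115 FPKM in BafA1 libraries and 617, 380.0 and 363 FPKM in MG132 libraries (-1.67 ± 0.25, adjusted p = 0.0027). For both, BafA1 and control libraries lay close together (control 53.9 ± 2.92 FPKM for DNAJB1 and 172 ± 17.3 FPKM for BAG3). HSP90AA1, the inducible HSP90 (-2.86 ± 0.31, adjusted p = 4.86e-04), the lens and muscle small heat shock protein CRYAB (-1.81 ± 0.19, adjusted p = 3.48e-04), and the co-chaperone STIP1 (-1.54 ± 0.13, adjusted p = 1.25e-04) were lower in BafA1 as well. So were DNAJA1 (-1.34 ± 0.11, adjusted p = 9.31e-05) and the mitochondrial HSP70 gene HSPA9 (-1.53 ± 0.11, adjusted p = 4.26e-05). The symbol CRYAB stands on more than 1 row. HSPB1, a small heat shock protein, had 1575, 1581 and 1068 FPKM in BafA1 libraries and 4928, 2059 and 1910.0 FPKM in MG132 libraries, which did not overlap but varied widely, and was not called (-0.95 ± 0.48, adjusted p = 0.138). Leaving out 1 of the 6 libraries gave 17 to 23 members called lower, and leaving out MG132 libraries 2 and 3 gave 12.

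The classic stress-inducible pair HSPA1A and HSPA1B cannot be read from single rows, because the table lists each on 5 rows of near-identical copies. On the row used for its symbol HSPA1A was called at -0.88 ± 0.21 (adjusted p = 0.0263), and HSPA1B was not called (-1.18 ± 1.42, adjusted p = 0.541). The call of HSPA1A ended without any 1 of the BafA1 libraries or without MG132 library 2 (adjusted p up to 0.11). Summed over all 10 rows, the pair had 272, 249 and 209.7 FPKM in BafA1 libraries, against 9472, 5809.6 and 5602 FPKM in MG132 libraries and 208, 228 and 229.9 FPKM in control libraries. On that sum, which was formed after the rows were seen and was not tested, MG132 libraries stood 27.8-fold above BafA1 libraries, which lay near the control libraries.

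Promoters of 300 bases, 250 before to 50 after the annotated start (RefSeq, GRCh38.p14), were searched on both strands for the letters of a heat shock element, GAA, any 2 bases, TTC, any 2 bases and GAA. The letters were found in 6 of the 25 heat shock members with a promoter in the table, against 0.487% of all 27305 promoters. Of the 6, HSPA6, HSPA8, DNAJA1, DNAJB6 and CHORDC1 were called lower in BafA1 and SERPINH1 was not called. The calls of DNAJB6 (adjusted p = 0.147) and CHORDC1 (adjusted p = 0.205) ended without MG132 libraries 2 and 3. HSPA6 and HSPA8 are shown because they were the members with the smallest adjusted p among the called genes whose promoter holds the letters. The HSPA6 promoter (chr1:161524290-161524589, plus strand) holds 1 match, the HSPA8 promoter (chr11:123062087-123062386, minus strand) 2, in capitals.
HSPA6: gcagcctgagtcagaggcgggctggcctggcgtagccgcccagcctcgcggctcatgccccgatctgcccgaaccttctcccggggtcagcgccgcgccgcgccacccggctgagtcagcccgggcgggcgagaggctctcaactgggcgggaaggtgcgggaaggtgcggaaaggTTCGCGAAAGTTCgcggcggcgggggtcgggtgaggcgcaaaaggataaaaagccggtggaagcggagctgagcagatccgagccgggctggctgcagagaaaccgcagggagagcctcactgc
HSPA8: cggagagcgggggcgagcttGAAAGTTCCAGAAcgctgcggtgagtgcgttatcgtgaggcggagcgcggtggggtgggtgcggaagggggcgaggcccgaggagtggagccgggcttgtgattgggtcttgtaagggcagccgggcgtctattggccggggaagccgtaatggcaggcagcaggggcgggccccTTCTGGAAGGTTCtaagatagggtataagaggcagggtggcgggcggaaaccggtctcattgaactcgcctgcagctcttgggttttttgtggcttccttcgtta
The match begins 74 bases before the start in HSPA6, and the matches begin 230 and 55 bases before it in HSPA8. A match describes these letters and is not evidence of a bound site. The list and the motif were both chosen for the heat shock response, so any excess over all promoters is a description and not a test. The same holds for the motifs of the lists below.

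Chaperones of the endoplasmic reticulum were lower in BafA1 as well. Of 26 genes of folding and disposal there, 15 were called lower in BafA1 and 0 higher, with a median of -1.21, and the medians beside control were -0.13 for BafA1 and 1.03 for MG132. HSPA5, the reticulum's HSP70 also known as BiP, had 133, 117 and 140.0 FPKM in BafA1 libraries and 1148, 1604 and 1679.5 FPKM in MG132 libraries, with 169 ± 4.29 in control libraries. MG132 libraries stood 11.2-fold above BafA1 libraries (-3.48 ± 0.15, adjusted p = 4.27e-06). HERPUD1, which helps to route misfolded proteins to the proteasome, had 47.7, 46.8 and 57.3 FPKM in BafA1 libraries and 156, 197 and 208 FPKM in MG132 libraries (-1.86 ± 0.14, adjusted p = 5.64e-05). Here BafA1 libraries were themselves above the control mean of 31.5 ± 1.67 FPKM, by 0.66, which was not called (adjusted p = 0.144). HYOU1 (-1.52 ± 0.12, adjusted p = 9.08e-05), DNAJB9 (-1.49 ± 0.16, adjusted p = 4.65e-04), the lectin chaperones CALR (-1.18 ± 0.13, adjusted p = 4.76e-04) and CANX (-1.06 ± 0.11, adjusted p = 3.04e-04) were lower in BafA1; HYOU1 stands on more than 1 row. The protein disulfide isomerases P4HB (0.47), PDIA3 (-0.13) and PDIA6 (-0.45) were not called. Between 9 and 17 members were called lower when 1 library was left out, the lowest count without MG132 library 2 or 3, and 6 were called without MG132 libraries 2 and 3.

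The letters of an endoplasmic reticulum stress element, CCAAT, any 9 bases and CCACG, were found in 6 of 23 promoters of these genes, against 0.0806% of all promoters. HSPA5, CANX, CALR, XBP1 and HSP90B1, which held them, were called lower in BafA1, and CRELD2, which also did, was not. The list and the motif were chosen for the same stress response, so the excess over all promoters is a description and not a test. This motif and the HSPA5 promoter (chr9:125241294-125241593, minus strand) were chosen after the values were seen, as the promoter of the member with the lowest difference. Its match, in capitals, begins 66 bases before the start.
HSPA5: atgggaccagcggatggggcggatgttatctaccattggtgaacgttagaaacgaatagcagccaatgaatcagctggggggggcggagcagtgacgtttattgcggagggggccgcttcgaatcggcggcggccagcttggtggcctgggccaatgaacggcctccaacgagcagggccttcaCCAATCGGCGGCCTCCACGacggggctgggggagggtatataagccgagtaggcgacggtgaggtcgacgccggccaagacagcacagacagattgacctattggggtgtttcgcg
XBP1 (-1.23 ± 0.23), a transcription factor of this stress response, and HSP90B1 (-2.37 ± 0.47) were called lower with all libraries, but not without MG132 library 2 or 3 (adjusted p up to 0.0526 for XBP1 and 0.0516 for HSP90B1) nor without both (adjusted p = 0.383 and 0.331).

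Targets of ATF4 and CHOP, factors of the integrated stress response, were called in both directions. Of 29 tested, 12 were called lower and 7 higher in BafA1, with a median of -0.23. DDIT3, which encodes CHOP, had 27.4, 30.2 and 26.3 FPKM in BafA1 libraries and 319, 422 and 421 FPKM in MG132 libraries (-3.73 ± 0.14, adjusted p = 3.82e-06), against 21.9 ± 1.86 in control libraries. The stress genes SESN2 (-2.59 ± 0.16, adjusted p = 2.46e-05), PPP1R15A, which restarts translation (-2.16 ± 0.13, adjusted p = 2.31e-05), TRIB3 (-2.04 ± 0.30, adjusted p = 0.00257) and the secreted GDF15 (-2.21 ± 0.25, adjusted p = 5.26e-04) were likewise lower in BafA1. ATF4 itself was lower at -1.28 ± 0.13 (adjusted p = 3.66e-04). Some members went the other way, among them enzymes of serine and proline synthesis. PHGDH, the first step of serine synthesis, had 194, 188 and 196 FPKM in BafA1 libraries, against 78.1, 67.2 and 62.8 FPKM in MG132 libraries and 177 ± 1.56 in control libraries (1.47 ± 0.18, adjusted p = 8.81e-04). PSAT1 (1.25 ± 0.23, adjusted p = 0.00834), the mitochondrial folate enzyme MTHFD2 (0.99 ± 0.14, adjusted p = 0.0023) and ALDH18A1 (1.03 ± 0.16, adjusted p = 0.00316) were also higher in BafA1 and lay close to the control libraries there, at 0.01, -0.30 and -0.29. DDIT4, an inhibitor of mTORC1, was higher in BafA1 at 259.8, 268 and 275 FPKM than in MG132 libraries at 120.1, 111 and 92.8 FPKM (1.31 ± 0.16, adjusted p = 9.01e-04), and both treatments were above the control mean of 51.2 ± 4.66 FPKM. VLDLR, a lipoprotein receptor, was the member highest in BafA1 (2.05 ± 0.18, adjusted p = 1.24e-04). PSPH (0.39, 95% interval -0.28 to 1.06) and SHMT2 (0.92, interval 0.01 to 1.83), which make and use serine, were not called. ASNS, asparagine synthetase, was not called (0.28 ± 0.16, 95% interval -0.08 to 0.64, adjusted p = 0.182). Without MG132 libraries 2 and 3, 7 members were called lower and 2 higher; the adjusted p-values of PHGDH (0.0757), MTHFD2 (0.141), ALDH18A1 (0.132) and DDIT4 (0.0764) were then above the threshold. CHAC1, lower in BafA1 at -0.94 ± 0.23 (adjusted p = 0.0302), lost its call without any 1 of BafA1 libraries 1 and 3 and MG132 libraries 2 and 3 (adjusted p up to 0.119). The letters TGATGNAA of an ATF4 element, where N is any base, were in 5 of 25 member promoters, of which ATF3 and CHAC1 were called, against 3.67% of all promoters; the call of ATF3 ended without MG132 libraries 2 and 3 (adjusted p = 0.0586).

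Among 19 targets of NRF2, the factor of the oxidative stress response, 12 were called lower and 2 higher in BafA1, with a median of -1.04. OSGIN1 had 9.01, 10.1 and 7.92 FPKM in BafA1 libraries and 102, 73.4 and 75.4 FPKM in MG132 libraries (-3.07 ± 0.23, adjusted p = 5.62e-05). GCLM, a subunit of the enzyme that limits glutathione synthesis, had 10.7, 7.73 and 9.54 FPKM in BafA1 libraries and 43.6, 56.9 and 51.7 FPKM in MG132 libraries (-2.33 ± 0.20, adjusted p = 1.13e-04). Its promoter was the one among 12 that held the letters of an antioxidant response element, TGAC, any 3 bases and GCA, against 3.26% of all promoters; this motif was chosen after the values were seen. TXNRD1, thioredoxin reductase, moved below control in BafA1 (-0.46, adjusted p = 0.0335) and above it in MG132 (0.48, adjusted p = 0.00194), and differed between them by -0.94 ± 0.07 (adjusted p = 5.62e-05). NQO1, a further target, was not called (0.16, adjusted p = 0.619). Of 9 genes of iron uptake and storage, 3 were called higher and 2 lower in BafA1, and the 2 lower ones encode ferritin, which stores iron. FTL had 608, 549 and 994 FPKM in BafA1 libraries and 4175, 7870.5 and 7724 FPKM in MG132 libraries (-3.19 ± 0.30, adjusted p = 2.16e-04). FTH1 had 3309.9, 3021 and 2653 FPKM in BafA1 libraries and 7434, 5608 and 5985 FPKM in MG132 libraries (-1.08 ± 0.16, adjusted p = 0.0028). Both have processed copies elsewhere in the genome, which makes their levels uncertain. The genes called higher include the transferrin receptor TFRC, at 158, 135 and 102 FPKM in BafA1 libraries and 65.6, 35.2 and 40.1 FPKM in MG132 libraries (1.50 ± 0.25, adjusted p = 0.00433), and the iron reductase STEAP3, at 2.40 ± 0.33 (adjusted p = 0.00181). The control mean of TFRC, 111 ± 19.4 FPKM, lay within the range of the BafA1 libraries. The calls of TFRC and STEAP3 ended without MG132 libraries 2 and 3 (adjusted p = 0.188 and 0.0836). Without MG132 libraries 2 and 3, 7 NRF2 targets were called lower and 0 iron genes higher.

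**Figure D3:**
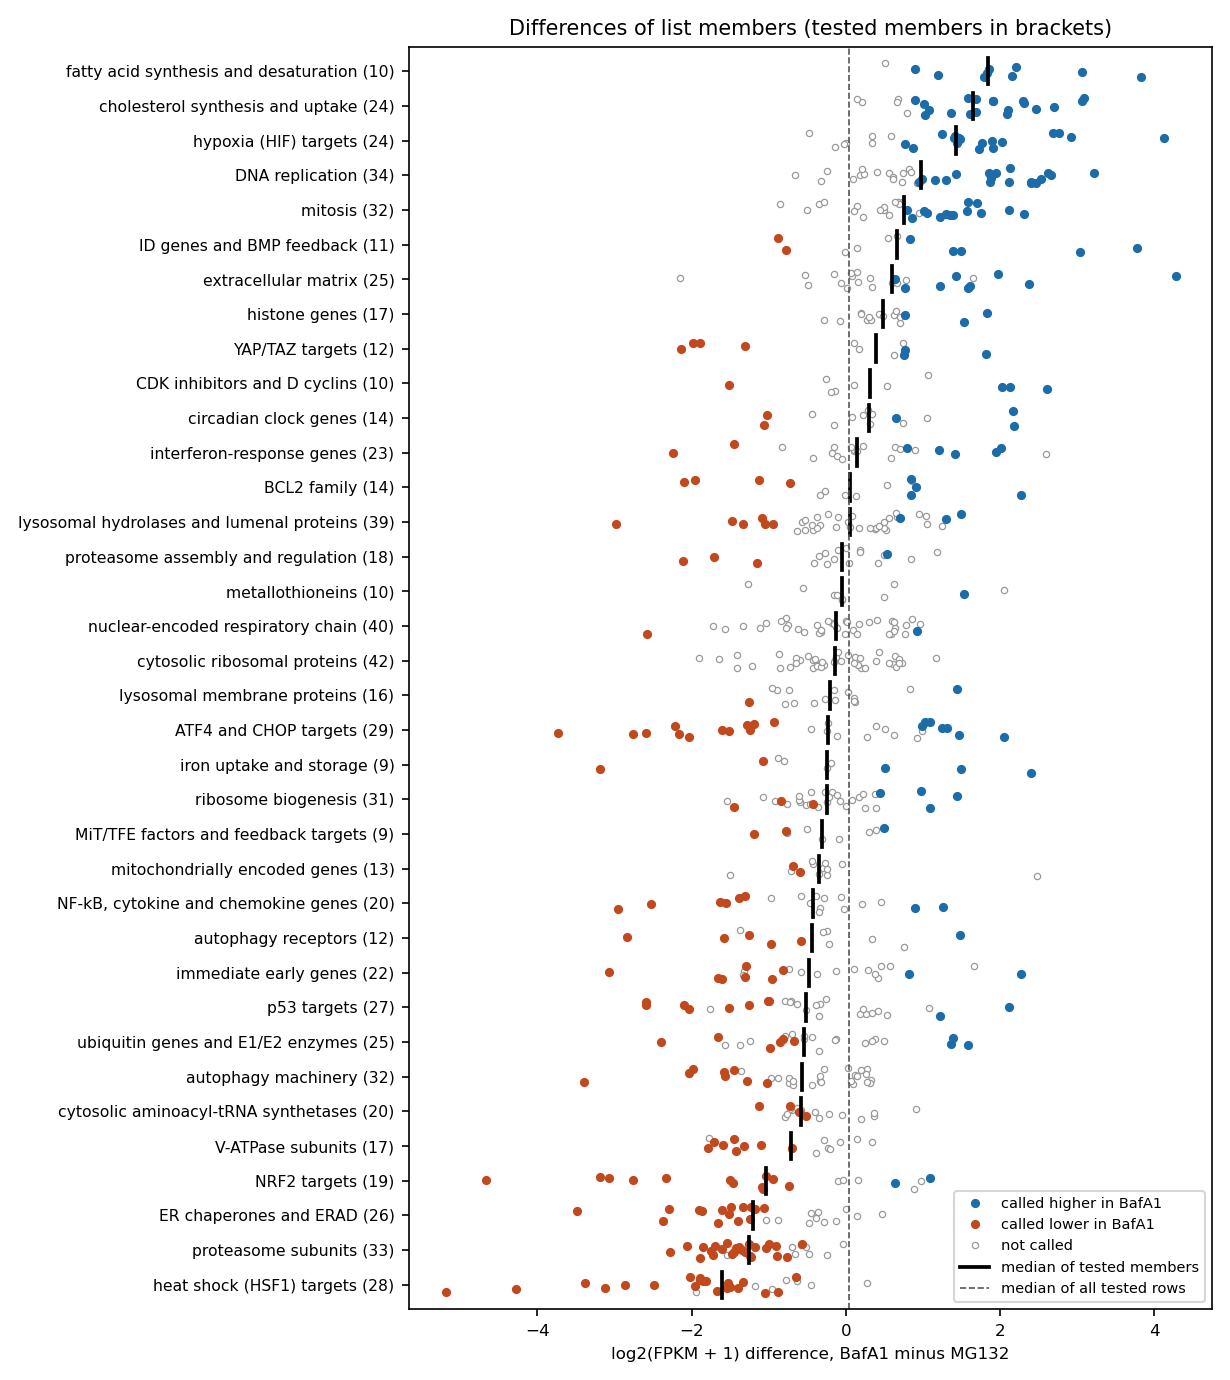
Differences, BafA1 minus MG132 on the log2(FPKM + 1) scale, of the tested members of 36 gene lists with at least 9 tested members, ordered by the median (black bar). Blue points were called higher, orange points lower and open points not called, and the dashed line is the median of all tested rows, 0.046; lipid and hypoxia genes lie at the top and heat shock, proteasome and reticulum genes at the bottom.

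Genes of autophagy, the route whose end point BafA1 blocks, were called lower in BafA1 more often than higher. Of 32 genes of the machinery, 8 were called lower and 0 higher, with a median of -0.57. Of 12 receptors that tie cargo to the growing membrane, 5 were called lower and 1 higher, with a median of -0.44. The machinery list ranged from 6 to 17 called lower with 1 library left out and had 2 without MG132 libraries 2 and 3. SQSTM1, the receptor also known as p62, had 517, 491 and 429.9 FPKM in BafA1 libraries, against 4551, 3026 and 2938 FPKM in MG132 libraries and 376 ± 5.66 in control libraries. Every MG132 library was more than 5 times as high as any BafA1 library (-2.84 ± 0.20, adjusted p = 4.23e-05). GABARAPL1, an ATG8-family protein of the autophagosome membrane, had 34.2, 35.1 and 30.8 FPKM in BafA1 libraries and 432, 329.6 and 331 FPKM in MG132 libraries (-3.40 ± 0.17, adjusted p = 6.92e-06). MAP1LC3B, its LC3 relative, had 52.9, 48.99 and 48.5 FPKM in BafA1 libraries and 165, 220.0 and 224 FPKM in MG132 libraries (-1.98 ± 0.16, adjusted p = 8.29e-05). BafA1 libraries lay above the control mean for all 3 genes, by 0.34, 0.75 and 0.30, none of which was called. WIPI1, which binds the early autophagosome, was lower in BafA1 (-1.29 ± 0.15, adjusted p = 7.02e-04), as was the receptor TAX1BP1 (-1.26 ± 0.17, adjusted p = 0.00145). Both calls ended without MG132 libraries 2 and 3 (adjusted p = 0.0714 and 0.105). The one receptor called higher in BafA1 was BNIP3, which is also a hypoxia target (1.48 ± 0.36, adjusted p = 0.0306). Its call ended without any 1 of the BafA1 libraries or of MG132 libraries 2 and 3 (adjusted p up to 0.1).

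Lysosomal genes were called in both directions. Among protein-coding rows 12.4% were called higher and 7.64% lower in BafA1, 2848 of 14194 rows in both directions together. Among all tested rows, which include non-coding ones, 10.9% were called. Of 39 hydrolases and other proteins of the lumen, 6 were called lower and 3 higher in BafA1, in all 23.1% of them. That share is near that of the protein-coding rows. The lumen median was 0.06, and -0.19 without MG132 libraries 2 and 3. The counts of lumen members were 4 to 8 lower and 0 to 10 higher with 1 library left out, the highest of both without MG132 library 1. They were 12 lower and 8 higher after the correction for GC content and length, and 2 and 0 without MG132 libraries 2 and 3. Of 16 membrane proteins 1 was called each way (12.5% in all), with a median of -0.21. The galactosidase GLA was the widest, at 12.7, 11.97 and 22.4 FPKM in BafA1 libraries and 87.8, 150.2 and 150.5 FPKM in MG132 libraries (-2.98 ± 0.28, adjusted p = 2.08e-04). HEXA, a hexosaminidase subunit (-1.05 ± 0.11, adjusted p = 4.08e-04), ASAH1, acid ceramidase (-1.09 ± 0.13, adjusted p = 7.81e-04), and the cholesterol transporter NPC1 (-1.25 ± 0.16, adjusted p = 0.0013) were lower in BafA1. The call of ASAH1 ended without MG132 libraries 2 and 3 (adjusted p = 0.106). Among those called higher were NPC2 (1.30 ± 0.28), which hands cholesterol to NPC1, and the fucosidase FUCA1 (0.70 ± 0.18). Both lost their calls without any 1 of BafA1 libraries 1 and 2 and MG132 libraries 2 and 3 (adjusted p up to 0.114, for FUCA1), and FUCA1 also without BafA1 library 3. NPC1 had 48.7, 45.1 and 42.2 FPKM in BafA1 libraries and 129, 103 and 97.4 FPKM in MG132 libraries, both above the control mean of 25 ± 1.15 FPKM. The protease gene CTSD (0.66, 95% interval -0.23 to 1.55), the membrane protein LAMP1 (-0.14, interval -0.63 to 0.36), the calcium channel MCOLN1 (0.03, interval -0.71 to 0.77) and the lysosomal master factor TFEB (-0.50, interval -2.08 to 1.08) were not called. Of 9 factors and feedback targets of the TFEB family, 2 were called lower, RRAGC (-1.19 ± 0.27) and FNIP2 (-0.78 ± 0.18). Both calls ended without any 1 of BafA1 libraries 1 and 2 and MG132 libraries 2 and 3 (adjusted p up to 0.107, for RRAGC), and that of FNIP2 also without BafA1 library 3. GPNMB was called higher in BafA1, at 90.7, 87.6 and 103 FPKM, against 63.1, 66.6 and 69.3 FPKM in MG132 libraries and 64.5 ± 1.99 in control libraries (0.49 ± 0.09, adjusted p = 0.00889). It was not called without MG132 library 2 (adjusted p = 0.062) or without MG132 libraries 2 and 3 (adjusted p = 0.241). Of the V-ATPase itself, the target of BafA1, 8 of 17 subunits were called lower in BafA1 and 0 higher, with a median of -0.71. ATP6V0A1 had 13.2, 11.7 and 11.6 FPKM in BafA1 libraries and 50.5, 39.6 and 37.2 FPKM in MG132 libraries (-1.71 ± 0.19, adjusted p = 4.67e-04). ATP6V0B had 82.8, 82.95 and 84.5 FPKM in BafA1 libraries and 190.1, 263 and 231 FPKM in MG132 libraries (-1.43 ± 0.13, adjusted p = 1.62e-04). Their control means were 11.6 ± 0.913 and 108 ± 3.49 FPKM, nearer to the BafA1 libraries. The count of subunits called lower was 5 to 10 with 1 library left out and 2 without MG132 libraries 2 and 3.

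Cholesterol genes lay in the other direction. Of 24 genes of cholesterol synthesis and uptake, 19 were called higher in BafA1 and 0 lower, against 6.37% of all rows called higher, and all 24 estimates lay above 0 with a median of 1.65. Beside control the median was 1.52 for BafA1 and -0.20 for MG132. INSIG1, the sterol sensor that holds SREBP back, had 354, 359.9 and 325 FPKM in BafA1 libraries, against 68.3, 57.9 and 59.7 FPKM in MG132 libraries and 51.7 ± 5.38 in control libraries. BafA1 libraries were 5.53-fold above MG132 libraries (2.47 ± 0.12, adjusted p = 5.91e-06), and the MG132 libraries lay just above the control mean. FDPS, which makes the farnesyl unit of the pathway, had 439, 418 and 474 FPKM in BafA1 libraries and 139, 112 and 105 FPKM in MG132 libraries (1.91 ± 0.14, adjusted p = 5.79e-05), with 221 ± 6.95 in control libraries. Every BafA1 library stood above every MG132 library.

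The widest differences of the list were those of MVK, mevalonate kinase (3.10 ± 0.35, adjusted p = 5.88e-04), and DHCR7, which makes cholesterol in a last step (3.06 ± 0.36, adjusted p = 7.20e-04). MVK averaged 187 ± 23.4 FPKM in BafA1, 21.8 ± 8.57 FPKM in MG132 and 72.2 ± 14.7 FPKM in control libraries. DHCR7 averaged 401 ± 99.1, 49.03 ± 22.2 and 127 ± 8.55 FPKM in the same order, so the control mean of both lay between the treatments. EBP, a sterol isomerase, was not called against control in BafA1 (0.56, adjusted p = 0.478), was lower than control in MG132 (-2.13, adjusted p = 4.25e-04), and differed by 2.70 ± 0.23 between them (adjusted p = 1.29e-04). ACAT2 (2.32 ± 0.14), TM7SF2 (2.11 ± 0.20) and FDFT1 (1.68 ± 0.19) were higher in BafA1, at adjusted p-values between 2.31e-05 and 5.97e-04. HMGCS1, the entry enzyme, had 106, 95.4 and 160.0 FPKM in BafA1 libraries and 24.1, 48.03 and 46.7 FPKM in MG132 libraries beside 15.4 ± 2.12 in control libraries. It was called in both contrasts with control (2.86 and 1.25, adjusted p = 0.00922 and 0.0281) and between the treatments (1.61 ± 0.32, adjusted p = 0.0109). STARD4, a carrier of cholesterol, had 51.8, 49.6 and 69.3 FPKM in BafA1 libraries and 42.3, 49.2 and 62.4 FPKM in MG132 libraries, which overlapped (0.15 ± 0.22, 95% interval -0.34 to 0.63), with 17.9 ± 2.82 in control libraries. The other 4 genes not called, SC5D, MSMO1, CYP51A1 and SQLE, each had their lowest value of the 6 libraries in MG132 library 1. SQLE, for example, had 26, 24.6 and 53.4 FPKM in BafA1 libraries and 8.55, 28.4 and 24.5 FPKM in MG132 libraries. With 1 library left out, 16 to 19 members were called higher, and 11 without MG132 libraries 2 and 3. The letters of a sterol regulatory element, ATCAC, any base and CCAC, were in 1 of 18 member promoters, that of SREBF2, against 0.154% of all promoters. SREBF2 was called higher in BafA1, a call that ended without any 1 of BafA1 libraries 1 and 2 and MG132 libraries 2 and 3 (adjusted p up to 0.106). Without their first base the letters were in the same promoter alone, against 1.15%.

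Genes of fatty acid synthesis were higher in BafA1 too. Of 10, 9 were called higher in BafA1 and 0 lower, with a median of 1.85. FADS2, a desaturase of polyunsaturated fatty acids, had 544, 546 and 488 FPKM in BafA1 libraries and 43.96, 36.5 and 29.3 FPKM in MG132 libraries. The control libraries, at 183 ± 10.9 FPKM, lay between, and both contrasts with them were called (1.52, adjusted p = 0.0191, for BafA1 and -2.31, adjusted p = 1.23e-04, for MG132). Its difference of 3.83 ± 0.20 (adjusted p = 1.06e-05) was the widest of both lipid lists. SCD, stearoyl-CoA desaturase, had 566, 550.2 and 825 FPKM in BafA1 libraries and 64.5, 85.5 and 77.7 FPKM in MG132 libraries (3.06 ± 0.20, adjusted p = 3.66e-05), with 98.2 ± 2.58 in control libraries. FADS1 (2.16 ± 0.17, adjusted p = 7.98e-05), the citrate lyase ACLY (1.79 ± 0.21, adjusted p = 7.48e-04), ACSS2 (1.85 ± 0.22, adjusted p = 7.14e-04) and FASN, fatty acid synthase (2.21 ± 0.41, adjusted p = 0.00764), were higher in BafA1. ACLY stands on more than 1 row, and FASN lost its call without MG132 libraries 2 and 3 (adjusted p = 0.276). ELOVL6, an elongase, was the member not called, at 32.8, 37.7 and 49.5 FPKM in BafA1 libraries and 15.9, 12.5 and 98.6 FPKM in MG132 libraries, of which library 3 was far above the others. There were 5 members called without MG132 libraries 2 and 3.

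Hypoxia genes were likewise higher in BafA1. Of 24 HIF targets, 17 were called higher and 0 lower, with a median of 1.43, and the medians beside control were 1.26 for BafA1 and -0.11 for MG132. CA9, a carbonic anhydrase that is a standard marker of HIF activity, had 45.5, 46.5 and 62.4 FPKM in BafA1 libraries, against 1.27, 2.63 and 2.19 FPKM in MG132 libraries and 4.09 ± 0.708 in control libraries. BafA1 libraries were over 15 times as high as any MG132 library (4.13 ± 0.28, adjusted p = 3.68e-05). PFKFB4, a regulator of glycolysis, had 98.3, 93.1 and 90.8 FPKM in BafA1 libraries and 13.7, 9.94 and 11.4 FPKM in MG132 libraries (2.92 ± 0.21, adjusted p = 4.85e-05). LDHA, lactate dehydrogenase, had 1806, 1654 and 2580.0 FPKM in BafA1 libraries and 258, 335 and 332 FPKM in MG132 libraries (2.69 ± 0.18, adjusted p = 3.46e-05). Control libraries had 17 ± 1.58 FPKM of PFKFB4, and LDHA in MG132 was below control (-1.71, adjusted p = 3.11e-04). ANGPTL4 (2.77 ± 0.24, adjusted p = 1.29e-04), PDK1 (1.46 ± 0.19, adjusted p = 0.00107), HK2 (1.91 ± 0.22, adjusted p = 6.78e-04) and the angiogenic factor VEGFA (1.73 ± 0.29, adjusted p = 0.00498) were higher in BafA1. HK2 and VEGFA lost their calls without MG132 libraries 2 and 3 (adjusted p = 0.058 and 0.19). ANKRD37 (1.42 ± 0.27, adjusted p = 0.00953) was called with each library left out in turn but not without MG132 libraries 2 and 3 (adjusted p = 0.116). ADM, adrenomedullin, was higher at 0.77 ± 0.16 (adjusted p = 0.0162), a call that ended without BafA1 library 3 or MG132 library 3 (adjusted p up to 0.0611). BNIP3 is given with the autophagy receptors.

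Not every HIF target was called between the treatments. BHLHE40, a transcriptional repressor, had 85.8, 79.6 and 87.03 FPKM in BafA1 libraries and 71.5, 65.5 and 61.3 FPKM in MG132 libraries, against 18.1 ± 2.24 in control libraries. It was called above control in both treatments (2.16 and 1.82, adjusted p = 3.72e-04 and 3.78e-05) and not between them (0.35 ± 0.13, 95% interval 0.06 to 0.63, adjusted p = 0.112). Every BafA1 library nevertheless lay above every MG132 library, as was so for 18.9% of all tested rows. NDRG1 had 152, 157 and 145 FPKM in BafA1 libraries and 212, 137 and 119 FPKM in MG132 libraries, which overlapped (-0.00 ± 0.23, interval -0.51 to 0.51), with 36.1 ± 1.84 in control libraries. Left out 1 at a time, the libraries gave 14 to 18 HIF targets called higher, and 7 were called without MG132 libraries 2 and 3. The letters TACGTG of a hypoxia response core were in 7 of 20 member promoters, 5 of them called (CA9, ENO2, ALDOC, EGLN1 and ANKRD37), against 3.33% of all promoters. The calls of ENO2 (adjusted p = 0.0572), ALDOC (adjusted p = 0.0741) and ANKRD37 (adjusted p = 0.116) ended without MG132 libraries 2 and 3. The CA9 promoter (chr9:35673678-35673977, plus strand) is shown as that of the called member with the smallest adjusted p among them; its match, on the other strand and in capitals, begins 18 bases before the start.
CA9: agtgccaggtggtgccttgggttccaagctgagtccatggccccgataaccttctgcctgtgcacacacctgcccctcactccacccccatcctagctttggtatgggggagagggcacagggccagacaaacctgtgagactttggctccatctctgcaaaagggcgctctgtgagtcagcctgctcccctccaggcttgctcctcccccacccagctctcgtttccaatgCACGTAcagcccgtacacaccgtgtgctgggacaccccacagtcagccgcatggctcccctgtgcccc

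**Figure D4:**
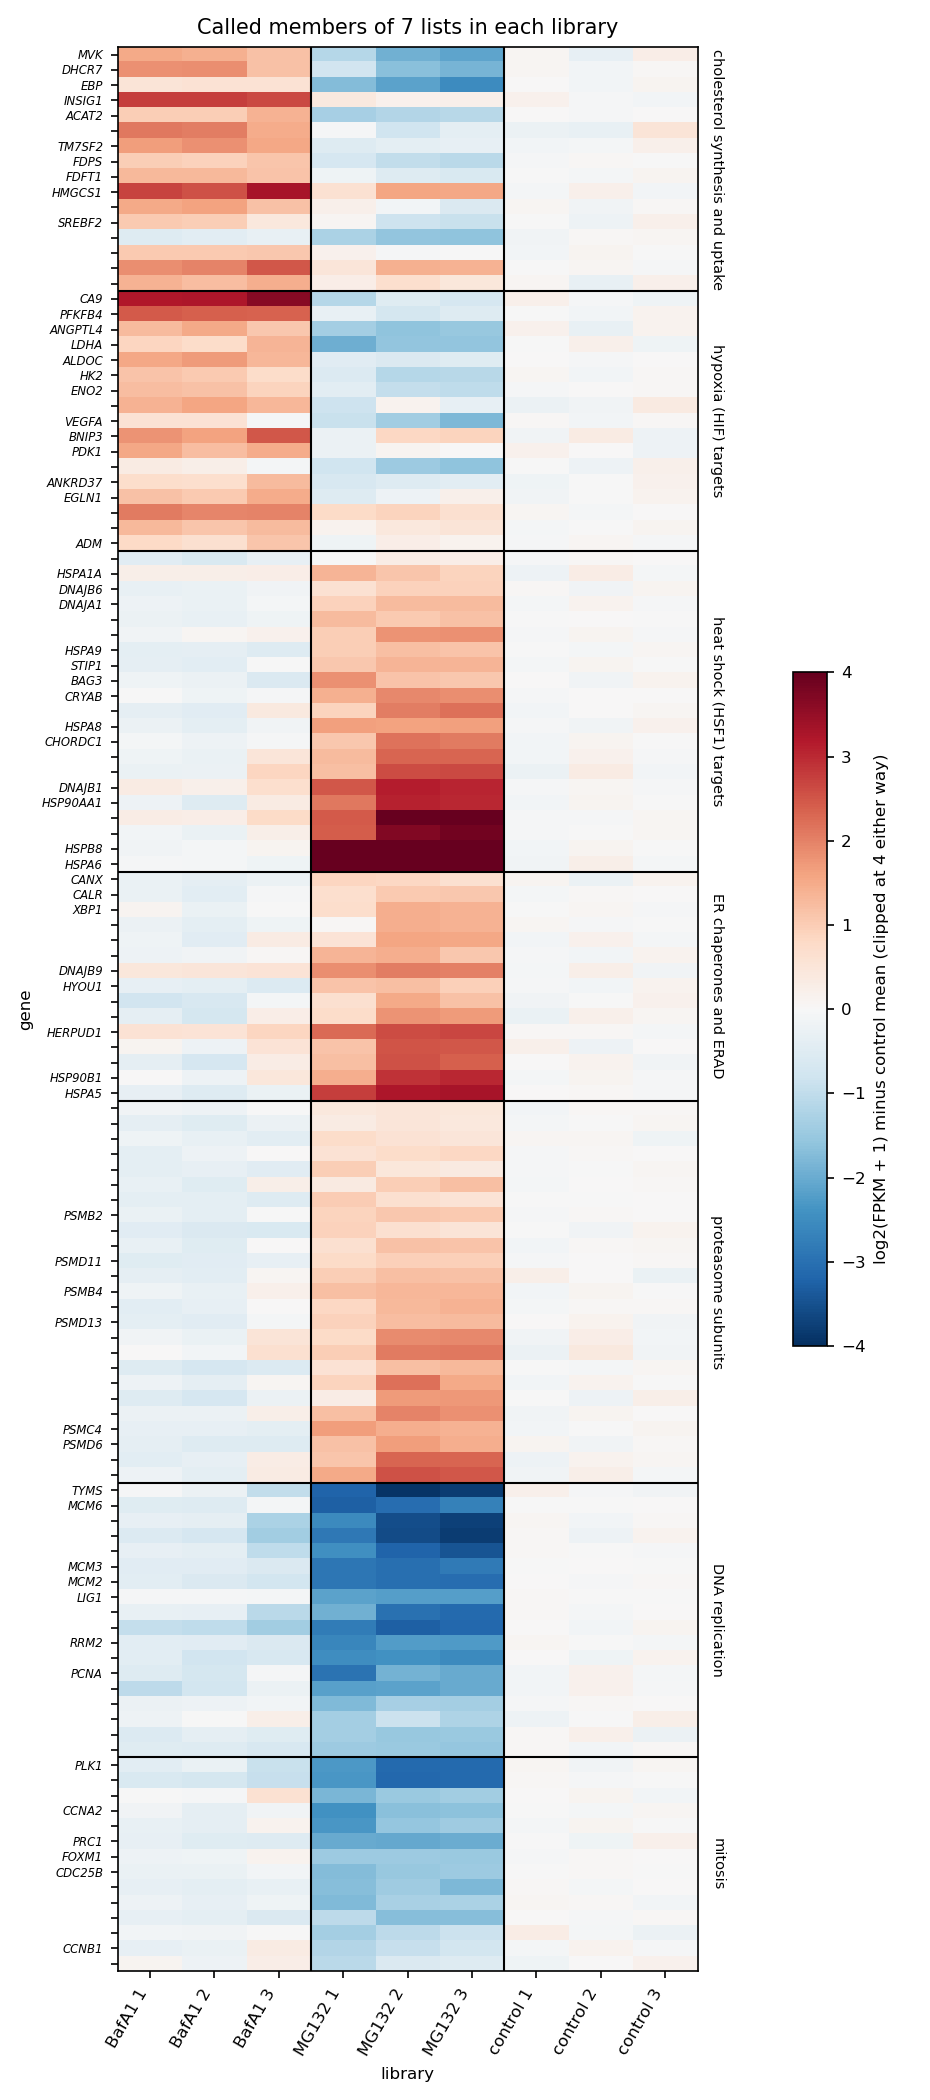
Log2(FPKM + 1) of 126 called members of 7 lists (genes named in the text are labelled) in each BafA1, MG132 and control library, minus the control mean; red is above and blue below it, clipped at 4. BafA1 libraries are mostly red in the upper lists (cholesterol and hypoxia) and pale elsewhere, and MG132 libraries are red in the heat shock, reticulum and proteasome lists and blue in replication and mitosis, with list medians beside control of 1.44, 1.03, 0.99, -1.43 and -0.57 over all tested members.

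With all libraries, the called genes of DNA replication and mitosis were higher in BafA1. Of 34 DNA replication genes, 18 were called higher in BafA1 and 0 lower (median 0.97), and of 32 mitosis genes 14 and 0 (median 0.76). Beside control the replication median was -0.42 for BafA1 and -1.43 for MG132, and the mitosis median 0.06 and -0.57. The MG132 libraries were uneven for mitosis, with list medians on the log2(FPKM + 1) scale of 3.47, 4.55 and 4.62. Those of control libraries were 4.90 to 5.16. The mitosis median between the treatments was 0.47 without MG132 library 1 and 1.38 without MG132 libraries 2 and 3. In RNA from whole cultures, fewer cycling cells and less mRNA per cycling cell cannot be told apart. MCM3, a subunit of the replicative helicase, had 65.2, 65.6 and 60.7 FPKM in BafA1 libraries, against 11.4, 10.3 and 11.9 FPKM in MG132 libraries and 90.1 ± 0.549 in control libraries. All libraries of a group lay close together, and the difference was 2.41 ± 0.11 (adjusted p = 4.27e-06). LIG1, the replicative DNA ligase, had 25.6, 25.7 and 24.9 FPKM in BafA1 libraries and 5.25, 4.92 and 4.99 FPKM in MG132 libraries (2.13 ± 0.14, adjusted p = 3.46e-05), and BafA1 was level with the control mean of 26.5 ± 0.63 FPKM. TYMS, thymidylate synthase (3.22 ± 0.36, adjusted p = 5.78e-04), MCM6 (2.66 ± 0.21, adjusted p = 8.16e-05), MCM2 (2.40 ± 0.16, adjusted p = 4.20e-05) and the ribonucleotide reductase subunit RRM2 (1.88 ± 0.12, adjusted p = 3.18e-05) were higher in BafA1.

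Of the mitotic genes, the kinase PLK1 had 175, 193 and 126 FPKM in BafA1 libraries and 46.6, 26.4 and 26.1 FPKM in MG132 libraries (2.31 ± 0.26, adjusted p = 6.26e-04), with 234 ± 18.8 in control libraries. PRC1, of the spindle midzone (1.57 ± 0.12, adjusted p = 7.26e-05), the transcription factor FOXM1 (1.40 ± 0.12, adjusted p = 1.51e-04), the phosphatase CDC25B (1.35 ± 0.12, adjusted p = 1.51e-04) and CCNA2, cyclin A (1.70 ± 0.26, adjusted p = 0.00264), were higher in BafA1. CCNB1, cyclin B, was higher at 0.85 ± 0.19 (adjusted p = 0.0183) and lost the call without MG132 library 2 (adjusted p = 0.0716) and without MG132 libraries 2 and 3 (adjusted p = 0.136). Other mitotic genes were not called, among them MKI67, which had 11.1, 11.04 and 14.5 FPKM in BafA1 libraries and 3.84, 9.22 and 9.70 FPKM in MG132 libraries (0.70 ± 0.45, adjusted p = 0.237). The variant histones H2AFZ (1.83 ± 0.08, adjusted p = 3.82e-06) and H2AFX (1.53 ± 0.16, adjusted p = 4.45e-04) were higher in BafA1, 2 of 3 called higher among 17 histone genes. Left out 1 at a time, the libraries gave 16 to 20 replication and 11 to 15 mitosis genes called higher, and without MG132 library 1, 3 and 2 were called lower. Without MG132 libraries 2 and 3, 10 replication and 8 mitosis genes were called higher.

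Among 10 CDK inhibitors and D cyclins, 3 were called higher and 1 lower in BafA1. CDKN1A, the inhibitor p21, had 223, 199 and 156 FPKM in BafA1 libraries and 762, 489 and 434 FPKM in MG132 libraries (-1.51 ± 0.29, adjusted p = 0.0091), with 219 ± 31.9 in control libraries. Of the INK4 inhibitors 3 were higher in BafA1, CDKN2A at 2.61 ± 0.52 (adjusted p = 0.012), CDKN2C at 2.13 ± 0.32 (adjusted p = 0.00293) and CDKN2D at 2.03 ± 0.26 (adjusted p = 0.00109), and CDKN2B was not called (0.53, 95% interval -0.33 to 1.40). Of 27 p53 targets, 8 were called lower and 2 higher in BafA1, with a median of -0.52. GADD45A, which binds PCNA, had 51.3, 47.6 and 34.7 FPKM in BafA1 libraries and 372, 233 and 228 FPKM in MG132 libraries (-2.60 ± 0.27, adjusted p = 3.40e-04). The BCL2 family had 4 of 14 called each way, counts that were 1 to 6 higher and 2 to 4 lower with 1 library left out and 1 each without MG132 libraries 2 and 3. The proapoptotic HRK was lower in BafA1 (-1.95 ± 0.19, adjusted p = 2.33e-04), as was PMAIP1, also known as NOXA (-2.10 ± 0.31, adjusted p = 0.00235), whereas BMF was higher (2.27 ± 0.19, adjusted p = 1.24e-04). The call of PMAIP1 ended without MG132 libraries 2 and 3 (adjusted p = 0.102), and so did that of CDKN2D (adjusted p = 0.0701). The call of CDKN2A ended without any 1 of BafA1 libraries 1 and 2 and MG132 libraries 2 and 3 (adjusted p up to 0.0559).

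Immediate early, cytokine and interferon genes were called in both directions. Among protein-coding rows 12.4% were called higher and 7.64% lower in BafA1. In each list here the share called in the rarer direction lay near or below the share of protein-coding rows. Of 22 immediate early genes, 7 were called lower and 2 higher in BafA1. DUSP1, a phosphatase of MAP kinases, had 24.4, 24.9 and 25.1 FPKM in BafA1 libraries and 212, 226 and 209.7 FPKM in MG132 libraries, with 32.01 ± 1.17 in control libraries. The libraries of each group lay close together, and the difference was -3.07 ± 0.10 (adjusted p = 3.59e-06). Its relative DUSP6 was higher in BafA1 (2.27 ± 0.32, adjusted p = 0.00187), though not without MG132 libraries 2 and 3 (adjusted p = 0.11). IER5 (-1.30 ± 0.12, adjusted p = 1.56e-04) and FOSB (-1.30 ± 0.10, adjusted p = 7.24e-05) were lower in BafA1, and MYC was not called (-0.58 ± 0.23, adjusted p = 0.115). Of 20 cytokine and NF-kB genes, 6 were called lower and 2 higher. The chemokine CXCL3 had 0.97, 1.12 and 1.18 FPKM in BafA1 libraries and 14.5, 14.9 and 15.96 FPKM in MG132 libraries (-2.95 ± 0.20, adjusted p = 3.82e-05). CXCL2 had 1.44, 1.43 and 0.78 FPKM in BafA1 libraries and 6.13, 5.83 and 5.40 FPKM in MG132 libraries (-1.63 ± 0.15, adjusted p = 1.77e-04). Of 23 interferon-response genes, 5 were called higher, led by OAS3 (2.01 ± 0.18, adjusted p = 1.75e-04), and 2 lower, STAT2 (-1.45 ± 0.14, adjusted p = 2.93e-04) and IFI44 (-2.24 ± 0.28, adjusted p = 9.20e-04). With 1 library left out, 3 to 7 interferon-response genes were called higher and 2 to 4 lower.

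Of 11 genes of BMP feedback, 5 were called higher in BafA1 and 2 lower. ID1, an inhibitor of differentiation factors and a direct BMP target, had 134, 134 and 123 FPKM in BafA1 libraries and 9.59, 8.94 and 7.34 FPKM in MG132 libraries (3.77 ± 0.19, adjusted p = 8.81e-06), with 190.2 ± 19 in control libraries. SMAD6, an inhibitor of BMP signalling, had 17.8, 17.5 and 12.2 FPKM in BafA1 libraries and 1.08, 1.01 and 0.99 FPKM in MG132 libraries (3.03 ± 0.23, adjusted p = 5.90e-05). Both were more than 10 times as high in every BafA1 library as in any MG132 library. BMP4 was higher in BafA1 as well (1.50 ± 0.15, adjusted p = 3.13e-04). Among 12 YAP and TAZ targets, 4 were called lower in BafA1 and 3 higher, counts that were 2 to 4 and 2 to 5 with 1 library left out. The list median of 0.40 turned to -0.21 without MG132 libraries 2 and 3. CYR61 had 193, 178 and 167 FPKM in BafA1 libraries and 499, 422 and 423 FPKM in MG132 libraries and 328 ± 1.69 in control libraries. It was called below control in BafA1 (-0.87, adjusted p = 0.0215) and above it in MG132 (0.44, adjusted p = 0.0353), a difference of -1.31 ± 0.12 (adjusted p = 1.62e-04). F3, tissue factor, had 54.2, 48.8 and 57.3 FPKM in BafA1 libraries and 144, 235 and 240.2 FPKM in MG132 libraries (-1.90 ± 0.21, adjusted p = 4.63e-04). Extracellular matrix genes were called higher in BafA1 in 9 of 25 and lower in 0. SPARC, a collagen-binding glycoprotein, had 1545, 1436 and 1388 FPKM in BafA1 libraries and 383, 316 and 421 FPKM in MG132 libraries (1.97 ± 0.16, adjusted p = 1.02e-04). Fibronectin, FN1, was not called (0.07 ± 0.27, interval -0.53 to 0.67). A single matrix gene, 1 of 25, was called higher without MG132 libraries 2 and 3.

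Ribosomal, respiratory and other housekeeping groups are read against the called protein-coding rows, 2848 of 14194 (12.4% higher and 7.64% lower in BafA1). The share of all tested rows called, 10.9%, also covers non-coding rows. Of 42 cytosolic ribosomal proteins 0 were called in either direction by limma, and at an unadjusted p under 0.05 there were 2 higher and 4 lower. Their median was -0.15, and 0.12 without MG132 libraries 2 and 3. Without MG132 library 1, 15 were called lower and 3 higher. Of 40 nuclear genes of the respiratory chain 1 was called each way (5% in all), and 7 higher and 10 lower without MG132 library 1. Of 31 ribosome biogenesis genes 4 were called higher and 3 lower (22.6%), and 12 lower without MG132 library 1. Among 20 tRNA synthetases 4 were called lower (AARS, HARS, IARS and WARS; 20%), a count that was 2 to 13 with 1 library left out and 0 without MG132 libraries 2 and 3. The chaperonin had 3 of 8 subunits called lower, or 37.5%, TCP1 at -0.96 ± 0.11 (adjusted p = 5.60e-04). Of 10 metallothionein and zinc genes 1 was called, MT1E, higher in BafA1 at 1683, 1519.8 and 1783 FPKM, against 435, 768 and 568 FPKM in MG132 libraries and 1881 ± 56.3 in control libraries (1.53 ± 0.25, adjusted p = 0.00425). Near-identical copies make it uncertain. MT2A (0.50, interval -0.04 to 1.03) and MT1X (-0.05, interval -0.51 to 0.40) were not called. Of 14 clock genes 3 were called higher and 2 lower (35.7%), with BHLHE41 (2.18 ± 0.19, adjusted p = 1.25e-04) and DBP (2.17 ± 0.24, adjusted p = 5.01e-04) the highest in BafA1. TXNIP, an inhibitor of thioredoxin and glucose uptake, was higher in BafA1 at 1.02 ± 0.24 (adjusted p = 0.0261) on the row used for its symbol. That call ended without any 1 of the BafA1 libraries or without MG132 library 2 (adjusted p up to 0.0895). Of 13 mitochondrially encoded genes 2 were called lower, MT-ND1 (-0.69 ± 0.13) and MT-CO1 (-0.60 ± 0.12). Neither was called without MG132 libraries 2 and 3 (adjusted p = 0.244 and 0.251), and these libraries held the largest mitochondrial shares, whose part in the result was not tested.

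Markers of the labelled cell type were partly absent. RPE65, TYR, DCT and TTR, genes of the differentiated pigment epithelium, stayed under 1 FPKM in all 6 libraries. RPE65 had 0.05, 0.06 and 0.05 FPKM in BafA1 libraries and 0.05, 0.04 and 0.04 FPKM in MG132 libraries. OTX2, a factor of that lineage, had 15.8, 17.3 and 11.8 FPKM in BafA1 and 11.8, 11.8 and 10.1 FPKM in MG132 libraries and was not called (0.37 ± 0.19). The keratins KRT8 (1.17 ± 0.22, adjusted p = 0.00824) and KRT18 (1.07 ± 0.11, adjusted p = 2.75e-04), counted among the 14 markers of that epithelium, were higher in BafA1. The list summed to 1157 to 1282 FPKM in BafA1, 484 to 739 FPKM in MG132 and 1244 to 1407 FPKM in control libraries. Blood markers summed to 76.1 to 111 FPKM in BafA1, 77.9 to 145 FPKM in MG132 and 111 to 138 FPKM in control libraries, with 0 of 6 tested members called by limma (1 lower at an unadjusted p under 0.05) and CD3E under 1 FPKM. Neuron markers summed to 442 to 637 FPKM in BafA1, 151 to 656 FPKM in MG132 and 77.1 to 747 FPKM in control libraries, with 1 of 5 tested members called higher, SNAP25, and NEFL and STMN2 under 1 FPKM. Markers of other epithelia summed to 35.3 to 63.6 FPKM in BafA1, 23.8 to 28.5 FPKM in MG132 and 35.7 to 73.8 FPKM in control libraries, with 1 of 6 tested members called higher, MUC1, a call that ended without any 1 of 4 libraries (adjusted p up to 0.0949) and without MG132 libraries 2 and 3 (adjusted p = 0.532). Of 3 tested endothelium markers 0 were called by limma, and 0 had an unadjusted p under 0.05; their list summed to between 5.99 and 7.40 FPKM in BafA1, 6.33 and 6.71 FPKM in MG132, and 5.07 and 5.89 FPKM in control libraries. Of 7 tested mesenchyme markers 2 were called higher in BafA1, THY1 at 3.29 ± 0.36 (adjusted p = 4.56e-04) and PDGFRB at 1.18 ± 0.20 (adjusted p = 0.00509), PDGFRB not without MG132 libraries 2 and 3 (adjusted p = 0.166). VIM, abundant in the line, varied between libraries (19219, 18673 and 8535 FPKM in BafA1, 14796, 6308 and 5878 FPKM in MG132) and was not called. The part of such markers in other results was not tested.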

How the data were processed

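RNA-seq of 12 libraries of hTERT-RPE1 cells was analysed, with 3 libraries for each of BafA1, MG132, control and reversine. The authors deposited FPKM values per gene in 1 table of 53361 rows, whose header names no unit; the values were read as FPKM because the totals of the libraries differ and reach 2057717, which TPM cannot. The submitters' processing notes name RSEM 1.2.6. Those notes also name Bowtie 1.0.0 and the builds hg19 and GRCh37, with no role given here. FPKM are not counts, so the depth in reads is unknown, and 6784 rows share a symbol with another row.

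Rows with at least 1 FPKM in 3 or more libraries (30712) were tested on log2(FPKM + 1) with limma 3.58.1 (R 4.3.3; trend, 1 mean for each of the 4 groups), two-sided, with Benjamini-Hochberg adjustment over all rows and a threshold of 0.05. Tables and plots used Python 3.11.15, pandas 2.3.3, numpy 2.4.6 and matplotlib 3.10.9, and the fit was checked on simulated data. Promoters came from a RefSeq table of GRCh38.p14, matched by symbol.

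The 44 gene lists and the comparison itself were chosen with earlier results of these data known. The text names the 12 highest and 12 lowest called genes (symbols that stand on 1 row alone, at least 5 FPKM in the higher group, no overlap), up to 4 called members per list and direction by adjusted p, 45 genes set by name, and printed promoters by adjusted p among called members with the motif. Some genes that the rule names are not reported here. The following were named outside that rule, after their values were seen: MVK, FDFT1, TM7SF2, EBP, DHCR7, SQLE, CYP51A1, MSMO1, SC5D, STARD4, ACLY, FASN, ELOVL6, PDK1, HK2, NDRG1, BHLHE40, PSMB4, PSMD13, HSP90AA1, HSPB1, DNAJA1, STIP1, HSP90B1, XBP1, CALR, DNAJB9, P4HB, PDIA3, PDIA6, PSAT1, PSPH, SHMT2, ALDH18A1, CDKN2B, NQO1, MCM6, TYMS, CCNA2, FN1, VIM and the cell type markers that were not called, as well as genes named only for a promoter match. Alternatives changed the pseudocount, the filter, the scaling, the libraries in the fit, library weights, a correction for GC content and length, and a term for the GC trend, and left out each library in turn.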

Additional observations from a re-analysis of the deposited data

How the results depend on the processing

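With all libraries 1955 rows were called higher and 1379 lower, 3334 in all, of which 2073 differed at least 2-fold. Fitting the BafA1 and MG132 libraries alone gave 959, 454, 1413 and 1137 for these 4 counts, and library weights gave 8073, 6545, 14618 and 12205. Without the libraries whose values fell with GC content they were 1115, 638, 1753 and 1379, and within those libraries 6355 were called lower, 9014 in all and 5880 at 2-fold or more, with 29.5% of calls higher against 58.6% with all libraries. A term for the GC trend gave 2335 lower and 5146 in all, and rows above 0 in all 12 libraries gave 2160 lower. Without the library in which 10 genes exceeded 40% of the FPKM, BafA1 library 2, there were 1265 higher, 763 lower and 2028 in all. Leaving out 1 library at a time gave 1172 to 10050 higher, 683 to 8395 lower, 1855 to 18445 in all and 1419 to 13888 at 2-fold or more. Leaving out MG132 libraries 2 and 3, chosen after seeing the data, gave 453, 294, 747 and 671. The share of calls that were higher was 67.9% with the 2 groups alone and 64.1% with median-ratio scaling. The cause of these changes was not tested. All 3334 calls kept their direction in every alternative that tested them, except under the GC and length correction, where 3110 of 3128 did. The calls were selected on these same libraries, so this too is a description. Keeping rows with at least 5 FPKM moved the median difference of all rows to 0.70, against 0.05 with the standard filter.

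Of the genes named in the text, 19 turned direction in some setting, and 0 of the 19 were called. A call already requires a difference that is wide against the spread. Outside the naming rule these were CDKN2B, ELOVL6, FN1, MSMO1, NDRG1, NQO1, P4HB, PDIA3, PDIA6, SC5D, SERPINH1 and VIM. The other 7 follow. Leaving out 1 library at a time, HSPA1B, whose copies share reads, ranged from -2.25 to 0.77, NFE2L1 from -0.0081 to 0.48, LAMP1 from -0.26 to 0.073, MCOLN1 from -0.17 to 0.35, TFEB from -0.99 to 0.12 and MT1X from -0.25 to 0.080. HSPA1B was 0.12 within the libraries whose values fell with GC content. Corrected for GC content and length, NFE2L1 was -0.099, MCOLN1 -0.33 and MT1X 0.30, and with the term for the GC trend they were -0.059, -0.23 and 0.0032. Within the other libraries, and without the falling ones, NFE2L1 was -0.20, MCOLN1 -0.45, TFEB 0.64 and MT1X 0.27. MCOLN1 was -0.076 without BafA1 library 2, and MT1X 0.027 with median-ratio scaling. Without MG132 libraries 2 and 3 NFE2L1 was -0.38, CTSD -0.14, MCOLN1 -0.61, TFEB 0.47 and MT1X 0.33.

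No paired analysis was possible because the labels give no replicate numbers that the groups share. Arms of 3 libraries and an unknown read depth limit what was called, and the lone MG132 library left without the others was assumed to vary like the other groups.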
